A study of Mus musculus with 4 samples.

Results

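Mouse zinc finger genes named Zfp plus a number were described in RNA bisulfite sequencing of leukemia cells that lack Tet2. The members are the gene labels of that form, with at most a letter after the number. They carried at least 1 site in the deposited list of positions called as methylated in the knockout. By its name the list holds sites unique to the knockout, so a position also called in WT may be missing from it. There were 158 member genes among 399 RefSeq genes with a name of this form, with 8749 distinct sites of the 506952 listed. A site that carries 2 gene labels enters under both, which gives 8778 pairs of a site and a gene. The members were chosen by the authors' site calls in the KO, so their number is a description; across all protein-coding RefSeq genes, 34.2% had a listed site.

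The cells are NRAS/AE9a leukemic cells, an acute myeloid leukemia culture that carries NRAS together with AE9a in every library, WT and Tet2 KO alike. They were grown with SCF (50 ng/ml), IL-3 (10 ng/ml), IL-6 (10 ng/ml), G418 (1 mg/ml) and puromycin (2 µg/ml). Poly(A) RNA was converted and sequenced as 2 WT and 2 Tet2 KO libraries. The list holds 0 columns of WT values and gives each position 1 value, averaged where both KO replicates made a call, so KO was not compared with WT here. The labels do not say which part of Tet2 was deleted, whether the cells are a clone, or how the replicates were grown, and their spread may be technical.

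Most Zfp proteins hold C2H2 zinc fingers, short loops in which paired cysteines and histidines grip a zinc ion and which read DNA bases, often in long tandem arrays encoded by a single large exon. Many also carry a KRAB box, which binds the scaffold protein TRIM28 and through it brings in SETDB1 and heterochromatin proteins to silence retroelements and imprinted loci. The genes multiplied by local duplication and lie in clusters. Bisulfite turns unmethylated cytosine into uracil, and the deposited level is the fraction of the reads used at a position that still show cytosine.

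Listed positions had at least 10 covering reads and a level of at least 0.2, so an absent gene gives no upper limit, and fewer cells making a transcript cannot be told apart from less transcript per cell. Of 14 myeloid markers 12 had sites, 11 of them plus-strand genes. Csf3r with 221 and Mpo with 217 had the most. The minus-strand gene Lyz2 had 1 site, and Ptprc and Ctsg, also minus-strand genes, had 0. Among all protein-coding genes 34.2% had a site, with 51.4% for plus-strand genes and 18.5% for minus-strand ones. The marker counts were not tested against these shares. B cell markers (0 of 5) and erythroid markers (0 of 5) had none, T and NK cell markers had them in 1 of 6 (Nkg7), and stroma markers in 1 of 5 (Vim). All 6 pancreatic islet hormone genes had sites, 593 in all, and 64.8% of these sites had a call from both replicates; the part of such RNA in the Zfp values was not tested. Plus-strand positions made up 502191 of the listed sites.

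The reference bases under the listed positions are shown first, because they bear on what each level means. RefSeq sequence of build GRCm38.p6, which shares its coordinates with the deposited mm10 positions, was at hand for windows from 250 bases before to 50 after annotated start sites, and 78 Zfp sites in 13 genes fell into such a window. The stretches below were picked after the values were seen, to show several listed positions close together. Each is at most 30 bases, written 5′ to 3′ on the strand of the gene, and capitals mark the listed positions.
Zfp62, chr11:49203504-49203533, plus strand: CCGgCggCcgggCtcccgcggtgCcgccac
Zfp830, chr11:82764403-82764432, plus strand: CtggGaagCgagtgGtgaatcaggaagAac
Zfp958, chr8:4613248-4613276, plus strand: GAgctcagGCaagctctgcagtcacggcA
Zfp740, chr15:102204591-102204620, plus strand: gcttcaccaagagAattcaacttggaaaCc
Zfp740, chr15:102205030-102205059, plus strand: ggaAagGaGAcaGgccacagcccctgcctt
Zfp384, chr6:125010384-125010413, plus strand: GttcagGAgccctggaaaggagaaggaata
Zfp212, chr6:47926701-47926730, plus strand: gaagaagctggCtGacttcgAgaaGacAgC
Zfp341, chr2:154632440-154632469, plus strand: acCcCaaCaggcaggaagAagaaGacacgg
Zfp131, chr13:119790480-119790509, minus strand: attaggtcaggctcggAgttCCgcggccgc

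Many listed plus-strand positions were not cytosines in the reference. Of the 75 plus-strand Zfp sites with a known base, 25 stood at C (33.3%, exact 95% interval 22.9 to 45.2), 28 at G (37.3%) and 22 at A (29.3%). None stood at T (0 of 75, which allows a share of up to 4%, taken as 3 counts of the total), although T made up 23.3% of all window bases. The 75 sites come from 12 genes and many lie close together, so the intervals in this paragraph cover counting error only. Over all 5942 plus-strand sites in such windows, 51.9% stood at C, 30% at G, 18.1% at A and 0 at T; whether Zfp genes differ from the rest was not tested. On the minus strand 130 of all 144 window sites stood at C (90.3%, 84.2 to 94.6), and of the 3 Zfp sites, all in Zfp131, 2 stood at C and 1 at A. A shift of the coordinates by 1 base gave T at 16% of Zfp sites on the left and at 18.7% on the right. In the first Zfp740 stretch the C was called in both replicates at a level of 0.926 with 28 covering reads, whereas the second held 5 listed positions and none of them at C. In Zfp384, which encodes a DNA-binding regulator, the A at 125010391 had a level of 0.738 from 45 of 61 reads. In the Zfp62 stretch 6 of 7 listed positions were at C, out of 15 cytosines in it. The median level of Zfp window sites was 0.6 at C, 0.55 at G and 0.607 at A. At a position without a reference cytosine the deposited level cannot be read as retention of that cytosine. The bases of the reads were not analysed here, and the base under the other Zfp sites was not known, so the levels that follow are the authors' values as deposited.

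The number of sites per gene ran from 1 to 240, with a median of 43 in Zfp genes and 43 in other genes. Zfp568, a KRAB protein that silences a placental form of the growth factor gene Igf2, led with 240 sites on chromosome 7 between 29985322 and 30028010. Zfp516, which encodes a transcription factor of brown fat, had 214. Zfp710 had 195, Zfp646 189 and Zfp180 188. Zfp207, which encodes a microtubule-binding protein of the mitotic spindle, had 183, followed by Zfp282 with 175, Zfp865 with 174, Zfp592 with 168 and Zfp318 with 163. These 10 genes, all on the plus strand, held 1889 pairs, or 21.5% of those in Zfp genes. At least 50 sites were found in 73 Zfp genes and at least 5 in 124, while 14 had 2 to 4 and 20 had a single site. The other 241 RefSeq Zfp genes had no site under their symbol. Among them were Zfp36 (tristetraprolin, which speeds the decay of cytokine mRNA), the pluripotency marker Zfp42 and the stem cell regulator Zfp521. Zfp36 and Zfp42 lie on the minus strand, where 14.3% of protein-coding Zfp genes had a site, and the strand of Zfp521 was not given. Nothing is read from these absences.

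**Figure D1:**
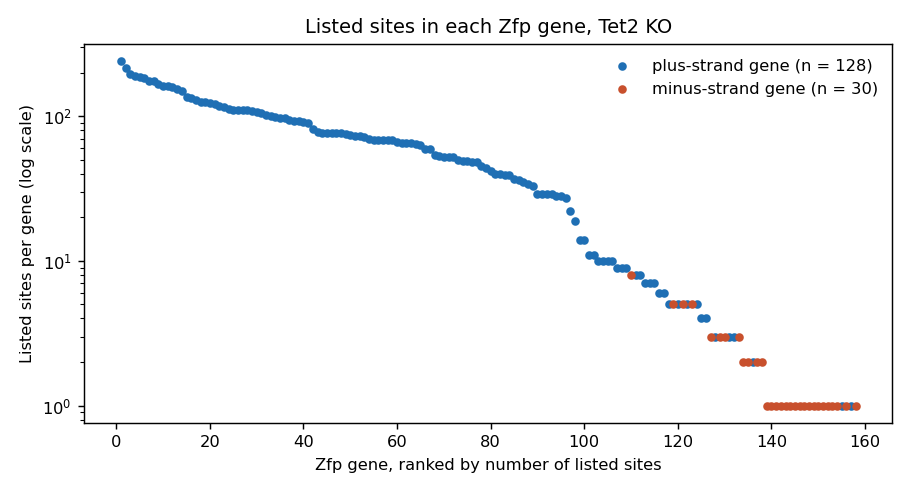
Listed sites per gene (vertical axis, log scale) for the 158 Zfp genes in rank order (horizontal axis), each point a gene, with the 128 plus-strand genes in blue and the 30 minus-strand genes in red. Minus-strand genes have 1 to 8 sites and sit at the low end, and the plus-strand genes run from 1 to 240.

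Strand separated the members. The 128 plus-strand Zfp genes held 8717 of the pairs with a median of 63.5 per gene, and the 30 minus-strand genes held 61 with a median of 1. Plus-strand pairs had a median level of 0.538 (quartiles 0.375 and 0.7) and minus-strand pairs 0.214 (0.2 and 0.273), with none above 0.35. Median coverage was 16 reads for the former and 24 for the latter, and the median of reads used 12 and 11. The part of depth and of the reference base in this difference was not tested. The same split was found in other genes, with median levels of 0.529 and 0.231 and medians of 68 and 1 sites per gene. Among protein-coding Zfp genes with a strand in the RefSeq windows, 104 of 161 plus-strand genes (64.6%) and 24 of 168 minus-strand genes (14.3%) had a site, beside 51.4% and 18.5% of all protein-coding genes on those strands. These shares are part of the rule and were not tested.

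Minus-strand members stayed close to the lowest listed level. Zfp219, which encodes a partner of SOX9, had the most with 8 sites, whose levels ran from 0.2 to 0.333 at a median coverage of 25.5 reads. Zfp91, which encodes a ubiquitin ligase, had 5 sites that also carry the label of the overlapping gene Gm44505, so their source is uncertain. The highest of them, at 12795183 on chromosome 19, kept 6 of 18 reads (0.333, Wilson 95% interval 0.163 to 0.563). Zfp608 and Zfp777 had 5 sites each with medians of 0.273 and 0.25. Zfp106, which encodes an RNA-binding protein, Zfp131, Zfp217, an amplified gene in breast cancer, and Zfp704 had 3 each, with medians of 0.231, 0.2, 0.231 and 0.2. Zfp579 alone among minus-strand members had a site called in both replicates, with levels of 0.3 and 0.4. Intervals here and below cover counting error only, since reads copied from 1 molecule are not independent.

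At the edge of the rule were the 20 genes with a single site. Of these 18 lay on the minus strand, among them Zfp335, a regulator of T cell maturation, with 2 of 10 reads (0.2). The 2 on the plus strand were Zfp760 with a level of 0.2 at 11 covering reads and Zfp970 with 0.8 at 10.

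The KRAB proteins with a known role or a well-described KRAB box made up a list of 14 genes, drawn up with the listed genes known, and all 14 had sites, 13 of them on the plus strand. Listed sites were found in 34.2% of all protein-coding genes, 51.4% of those on the plus strand and 18.5% of those on the minus strand, and nothing is read from these counts. Besides Zfp568, Zfp180 and Zfp282, Zfp263 had 136 sites with a median level of 0.472 and Zfp317 had 102 with 0.489. Zfp57, which protects methylation at imprinted loci, had 49 sites (median level 0.583, 6 in both replicates). Zfp445, its partner in that role, lies on the minus strand and had 2 sites, both at 0.2. Zfp809, which silences endogenous retroviruses through their primer binding site, had 50 sites with a median of 0.5, of which 1 was called in both replicates. Zfp28 likewise had 1 of 48 in both, and Zfp932 3 of 40. Over the list, 1254 pairs had a median level of 0.5 and 11.6% were called in both replicates, against 0.535 and 13.1% over all Zfp genes.

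Of 9 genes for Zfp proteins that act on RNA, ribosomes or the spindle, 8 had sites, 726 in all, with a median level of 0.5 and 14.2% called in both replicates. The list was drawn up with the listed genes known, and 6 of the 8 lie on the plus strand, where 51.4% of protein-coding genes had a site, beside 34.2% of all protein-coding genes. Zfp598, the ubiquitin ligase that marks collided ribosomes, had 133 sites with a median level of 0.6 (quartiles 0.4 and 0.789) and a median coverage of 24 reads, with Zfp523 the highest among the 106 plus-strand members with 10 or more sites. Zfp622, a ribosome maturation factor, had 70 sites with a median of 0.626. Among its sites called in 1 replicate, the one with the most reads used, at 25997303 on chromosome 15, kept 53 of 74 (0.716, Wilson interval 0.605 to 0.806). Zfp207 had the member sites with the most reads used among those called in 1 replicate. At 80387879 on chromosome 11 it kept 33 of 96 reads (0.344, Wilson interval 0.256 to 0.443), and at 80387840, nearer the 5′ end, 39 of 90 (0.433, 0.336 to 0.536). Zfp638, which encodes a nuclear RNA- and DNA-binding protein, had 149 sites with a lower median of 0.44, Zfp326 had 97 with 0.5 and Zfp346, which encodes a double-stranded RNA-binding protein, 90 with 0.523.

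Of 17 genes for DNA-binding regulators, 15 had sites, 1106 in all, with a median level of 0.545 and 13.4% called in both replicates. This list, too, was drawn up with the listed genes known; 11 of the 15 lie on the plus strand (51.4% of protein-coding genes with a site) and 4 on the minus strand (18.5%). Zfp703, a repressor studied in breast cancer, had 42 sites with a median of 0.662 (quartiles 0.418 and 0.895), and Zfp296, which encodes a partner of reprogramming factors, 66 with 0.632. Zfp592 had 168 with 0.589, Zfp341, an activator of the STAT3 gene, 74 with 0.6, and Zfp384 69 with 0.571. Zfp143, which binds at promoters, had 92 with 0.488, Zfp281 81 with 0.5 and Zfp148 111 with 0.455. Zfp687, which shares a chromatin complex with Zfp592, lies on the minus strand and had 2 sites of 0.214 and 0.2.

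Median levels of single genes lay in a band. Among the 106 plus-strand members with 10 or more sites, the lowest was 0.385 in Zfp382 (33 sites), the median 0.52 and the highest 0.714 in Zfp444 (45 sites, quartiles 0.572 and 0.824). After Zfp444 and Zfp703 came Zfp719 (0.65, 10 sites), Zfp775 (0.632), Zfp296 (0.632), Zfp276 (0.629), Zfp622 (0.626), Zfp628 (0.625), Zfp771 (0.623) and Zfp598 (0.6), which was tied with Zfp526, Zfp341, Zfp324 and Zfp446. The quartiles of Zfp382 were 0.308 and 0.668 and overlapped those of Zfp444. Sites of a gene share reads and are not replicates, so these medians were not tested against each other. In genes with 5 or more sites, the median gene level was 0.52 in 120 plus-strand Zfp genes and 0.533 in 5351 other plus-strand genes.

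**Figure D2:**
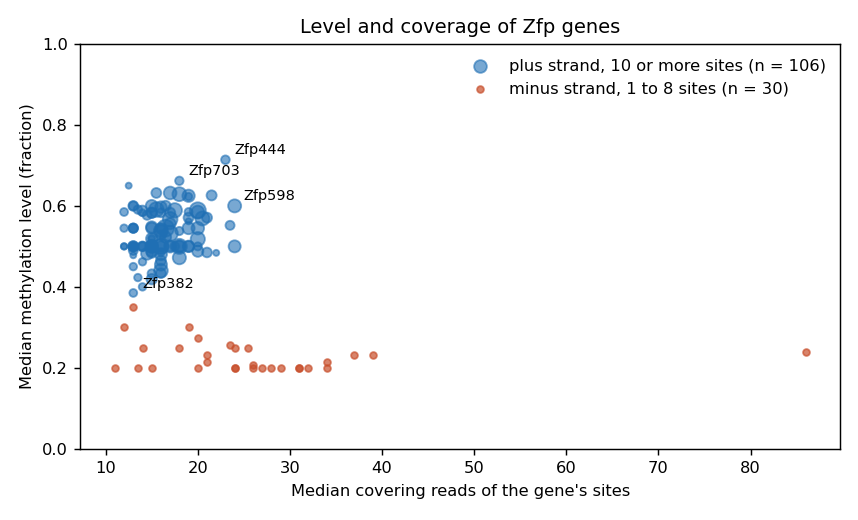
Median deposited level (vertical axis, fraction) against median covering reads (horizontal axis) for plus-strand Zfp genes with 10 or more sites (blue, area grows with the number of sites) and all minus-strand members (red). Plus-strand genes lie between 0.385 and 0.714 at 12 to 24 reads, and minus-strand genes at or below 0.35.

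Single sites reached a deposited level of 1; the reference base under the sites named here was not known. Positions with 20 or more reads used and a call in 1 replicate were ranked by level, taking 1 per gene. Zfp110, a KRAB protein linked to neurotrophin receptor signalling, kept 26 of 26 reads at 12849719 on chromosome 7 (Wilson interval 0.871 to 1). Zfp628 kept 24 of 24 at 4920420 on chromosome 7 (0.862 to 1) and Zfp622 23 of 23 at 25984889 on chromosome 15 (0.857 to 1). Next were Zfp143 with 32 of 33, Zfp358 with 28 of 29, Zfp276 with 25 of 26, Zfp516 with 24 of 25, Zfp512 with 40 of 42, Zfp523 with 20 of 21 and Zfp932 with 19 of 20. A level of 1 was listed at 306 Zfp pairs. Picking out the highest sites is not reflected in these intervals. Reads used were fewer than reads covering, with a median of 12 used against 16 covering, and only 140 pairs had 50 or more covering reads.

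A call in both KO replicates was listed for 1146 of the 8778 Zfp pairs (13.1%, exact interval 12.4 to 13.8), beside 14.3% of pairs in other genes. Plus-strand sites with 15 to 19 covering reads were called in both in 13% of Zfp pairs (11.7 to 14.4) and 14.3% of others, and those with 10 to 14 reads in 9.66% (8.66 to 10.7) and 8.76%. With 20 to 29 reads the shares were 17.3% (15.7 to 19.1) and 18.2%, and with 30 to 49 reads 17.6% (15 to 20.4) and 19.3%. Among sites with 50 or more reads the share was 11% in 136 Zfp pairs (6.31 to 17.5) and 17.1% in others. At shared Zfp sites the replicates differed by a median of 0.1 in level, and 10% of sites differed by more than 0.269, close to the 0.098 and 0.268 of other genes.

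Zfp180 had the most sites called in both replicates, 39 of 188 (20.7%, exact interval 15.2 to 27.2), and Zfp568 followed with 33, Zfp516 with 30, Zfp512 with 28 and Zfp207 with 27. At 24106344 in Zfp180 the replicates stood at 0.593 and 0.691 (mean 0.642 ± 0.0693, SD, n = 2), and at 24105838 at 0.429 and 0.727 (0.578 ± 0.211, SD, n = 2). Whether the spread at these sites differed beyond counting error was not tested. At 30026191 in Zfp568 they stood at 0.85 and 0.958 (0.904 ± 0.0764, SD, n = 2). Among members with 10 or more sites, Zfp296 had the highest share called in both, 25 of 66 (37.9%, interval 26.2 to 50.7), at a median coverage of 15.5 reads, and at 19577864 both replicates were at 1. Zfp296 was singled out for this share after its values were seen.

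Sites were spread unevenly along the genes. On the plus strand the 3′-most of 10 equal parts of the RefSeq span, the last decile, held 26.3% of Zfp pairs and 28.9% of pairs in other genes, and the ninth decile 20.3% and 13.9%. The first decile held 7.59% and 8.27%. Closeness of sites was described in plus-strand genes with 20 or more sites, all of them inside the RefSeq span. In 96 such Zfp genes, the shortest stretch that held 50% of the sites covered a median of 9.39% of the span (quartiles 5.7 and 14.6), or 1316 nt. In 4752 other such genes it covered 15.2% (6.77 and 25.4), or 2800 nt. The median span was 15752 bp in these Zfp genes and 24431 bp in the others. No correction for how reads were distributed within a gene was made, and exon positions were not used here.

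The leading genes differed in this respect. Zfp568 held 50% of its sites within 2523 nt, 5.69% of its span, and 38.8% in the last decile. Zfp180 had 52.7% of its sites in the last decile, and Zfp775, a gene of 125 sites, 75.2%. Zfp207 and Zfp318 had 0% there, and in Zfp207 the stretch with 50% of the sites covered 38.9% of the span. Zfp646 carried its 189 sites at 20.8 per kb of span, with its longest gap at 1687 nt, whereas Zfp516 had a gap of 44545 nt between neighbouring sites. Another listed site lay within 10 nt on the same strand for 74.1% of Zfp pairs and 70.1% of other pairs. The 128 plus-strand members share libraries and depth, and genes are not independent replicates. Across these members the number of sites had a Spearman's rho of 0.525 with median coverage and 0.0575 with span. Only positions with at least 10 covering reads are listed, and median coverage was taken over the listed sites. A positive relation of coverage with the number of sites can thus come from the listing rule. Nothing is read from the order of these coefficients.

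**Figure D3:**
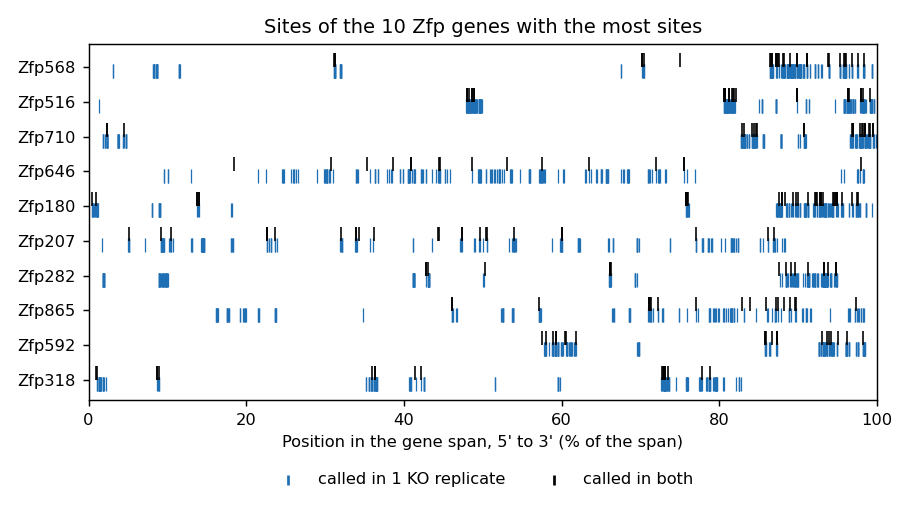
Each tick is a listed site placed along its gene (horizontal axis, percent of the RefSeq span from 5′ to 3′) for the 10 Zfp genes with the most sites (rows), blue for a call in 1 KO replicate and black for both. Zfp568 and Zfp180 crowd towards the 3′ end, and Zfp646 and Zfp207 are filled more evenly.

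**Figure D4:**
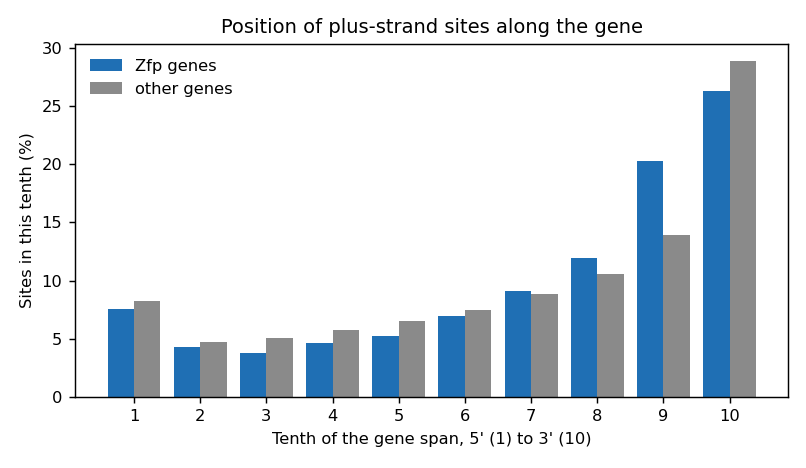
Percent of plus-strand pairs of a site and a gene (vertical axis) in each decile of the gene span (horizontal axis), for Zfp genes (blue) and other genes (grey). Zfp genes hold 20.3% in the ninth decile against 13.9% in other genes, and 26.3% against 28.9% in the last.

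Clusters were taken as runs of 3 or more RefSeq Zfp genes with at most 200 kb between neighbours. There were 29, with 198 Zfp genes, of which 69 had a site, and 89 members lay outside them. Of all RefSeq Zfp genes 39.6% had a site, and of all protein-coding genes 34.2%. Chromosome 7 held 39 members and 2647 pairs, 30.2% of all, and chromosomes 6 and 17 followed with 911 and 809. The counts per chromosome were not set against the number of RefSeq Zfp genes on each. Clustered plus-strand members had a median of 36 sites and a median gene level of 0.5 (59 genes), and plus-strand members outside clusters 74 sites and 0.523 (69 genes). Median coverage was 15 and 16 reads. Near-identical paralogues in a cluster can share reads, and the authors' handling of such reads is not stated in the labels. Zfp991 and Zfp992 on chromosome 4 shared 28 sites, and all sites labelled Zfp991 (29) and Zfp433 (5) and 3 of those labelled Zfp982 lay outside the RefSeq span of that gene, so their counts are uncertain.

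In each of the 6 clusters with 5 or more members with a site, the plus-strand genes summed to more sites than the minus-strand genes. On chromosome 6 between 47815536 and 48086986, 7 of 8 Zfp genes had sites. The plus-strand genes Zfp282, Zfp956, Zfp212, Zfp783 and Zfp398 had 175, 115, 100, 77 and 39, and the minus-strand genes Zfp777 and Zfp746 had 5 and 1. On chromosome 7 between 29768552 and 30169775, 5 of 8 plus-strand genes had sites (Zfp568, Zfp84, Zfp790, Zfp260 and Zfp382) and 0 of 7 minus-strand genes. A second chromosome 7 cluster, between 4915181 and 5053723, held Zfp865, Zfp628, Zfp524 and Zfp580 on the plus strand with 174, 117, 35 and 9 sites, and Zfp579 on the minus strand with 1. On chromosome 17, the cluster between 21383707 and 22456689 had sites in 8 of 12 plus-strand genes, led by Zfp53 with 37 and Zfp52 with 36, and in 0 of 6 minus-strand genes. The cluster between 32765496 and 33394637 had them in 4 of 4 plus-strand genes, led by Zfp952 with 59, and in 1 of 7 minus-strand genes. In another chromosome 7 cluster, between 27674661 and 28014210, the plus-strand genes Zfp626, Zfp59, Zfp60, Zfp607a and Zfp607b had 52, 7, 3, 2 and 0 sites, and the minus-strand gene Zfp850 had 2, as many as Zfp607a. The largest cluster, 23 genes on chromosome 13 between 67038594 and 67827000, had 0 sites. It held 17 minus-strand genes and 3 plus-strand genes, and the rest had no strand given. In all, 6 of the 29 clusters had no site. Over all clusters, 59 of 89 plus-strand Zfp genes and 10 of 97 minus-strand ones had a site. Across all protein-coding genes the shares were 51.4% and 18.5% on those strands. In the cluster counts a member took the strand of its listed sites. Genes with no strand given, all without a site, were left out, which can only raise the cluster shares. These shares were not tested. The part of strand in the empty clusters was not tested.

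**Figure D5:**
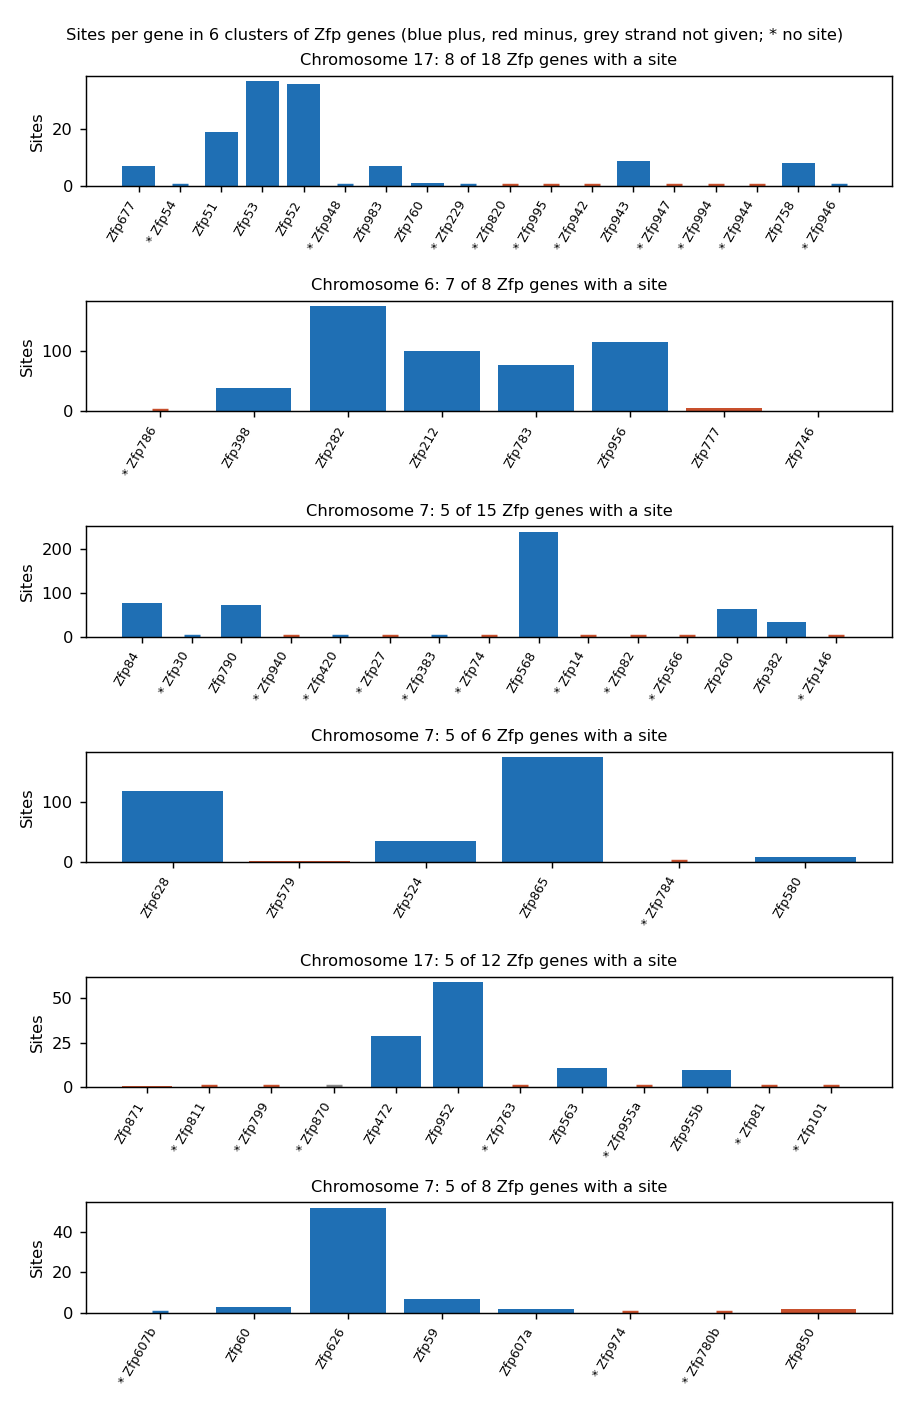
Listed sites per gene (vertical axis, scaled separately in each panel) in chromosome order for the 6 clusters with 5 or more members with a site; bars are blue for plus-strand genes, red for minus-strand genes and grey where the strand was not given, and an asterisk marks a gene with no listed site. Sites stand in blue bars of up to 240 in Zfp568, beside red genes with 5 or fewer.

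Among the corepressors through which KRAB proteins act, 16 of 19 genes had sites, 13 of them on the plus strand, beside 34.2% of all protein-coding genes and 51.4% of those on the plus strand. The scaffold gene Trim28 had 78 sites with a median level of 0.542 and the SETDB1 cofactor gene Atf7ip 152 with 0.5. The heterochromatin protein genes Cbx1 and Cbx3 had 52 and 76, with 0.417 and 0.481, and the remodeller gene Chd4 268 with 0.5. Mphosph8, of the HUSH silencing complex, had the lowest median among the plus-strand genes of the list, 0.382 over 116 sites. Cbx5, Chd3 and Dnmt1, on the minus strand, had 2 sites, 7 sites and 1 site. Setdb1 and Sumo2, also on the minus strand, and Hdac1, with no strand given, had 0. On the minus strand 18.5% of protein-coding genes had a site. Other zinc finger families on the plus strand had median site levels near the 0.538 of Zfp genes. These were 0.545 in 18 Zbtb genes, 0.538 in 8 Zkscan and Zscan genes, 0.52 in 8 Zc3h genes and 0.554 in 6 Klf genes. The last decile held 28.6% of the sites in Zkscan and Zscan genes, 26.8% in Zc3h genes, 14.9% in Zbtb genes and 12.9% in Klf genes. The ninth decile held 20.9% in Zkscan and Zscan genes, 10.6% in Zc3h genes, 12.1% in Zbtb genes and 17.5% in Klf genes. Proteins of the Zbtb, Zkscan, Zscan and Klf families carry C2H2 fingers, and those of the Zc3h family fingers of another type. These families were not tested against the Zfp genes.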

How the data were processed

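The deposited table has 1 line per position, on mm10 per the submitters' processing notes. Aligner and caller are not stated in those sources. Per the file headers, covering reads and unconverted reads are averages, a score that the authors rounded to whole numbers where both replicates made a call. The level is a fraction deposited by the authors, and the SD of the level between replicates is deposited too. The authors' combined p-values, SEM and scaled coverage were not used. Columns of other series numbered 0.

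The members, gene lists and named genes were chosen with earlier results of these data known. Labels were matched to RefSeq symbols (158 of 158). The strand of a member in its counts, levels and positions was that of its listed sites. The RefSeq windows, which cover 129 members, gave the strand for genes without a site and, outside the cluster counts, for the shares of genes with a site. Reads used were unconverted reads over level, whole for 100% of single-call sites (tolerance 0.0006). The deposited SD was read as a population SD, since the higher replicate then sat at exactly 1 in 5.29% of sites against 0% otherwise (tolerance 0.0015); printed SDs are sample SDs. Named were the 10 genes with most sites, the 10 with the highest median level at 10 or more sites, minus-strand members with 3 or more sites and the 5 with most shared sites. Also named were the 10 highest sites at 20 or more reads used, called in 1 replicate and taken 1 per gene. The 5 clusters with most members (6 with a tie) and a set of well-studied genes were named too. Planned tests of KO against WT and the planned protein classes were not made, as no WT values or protein sequences were used here. A planned member of the corepressor list is not reported here. Shares have exact Clopper-Pearson and single sites Wilson intervals at 95%. Calculations used Python 3.11.15, pandas 2.3.3 and scipy 1.17.1 and were tested on simulated data.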

Additional observations from a re-analysis of the deposited data

How the results depend on the processing

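Stricter settings mainly removed sites. Zfp genes with a site fell from 158 to 86 at 30 or more covering reads and to 91 at 20 or more reads used. Sites fell from 8749 to 2941 at 20 and 946 at 30 covering reads, 1029 at 20 reads used, 2266 outside runs and 1141 called in both replicates; fewer sites are allowed by construction. The share called in both replicates moved from 13.1% to 16.9% and 16.3% at 20 and 30 covering reads, 11.6% at 20 reads used and 11.7% outside runs. The last decile moved from 26.3% to 27.7%, 30.8%, 30.5% and 27.7% in the same order. At sites called in both replicates, reads used could only be estimated from rounded average reads and the average level. Every value at 20 or more reads used is therefore approximate, the share called in both most of all. The median level of 0.535 ran from 0.48, at 30 or more covering reads and at 20 or more reads used, to 0.538 in plus-strand genes. Restricting to plus-strand genes, or leaving out the 10 genes with most sites, was added after seeing the data and moved none of these values beyond the limits. No paired analysis was possible because the table does not say which library a value belongs to and has no WT values, and for the same reason no replicate could be left out. A median of 12 reads used per site limits single levels.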

Other observations

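Related genes outside the naming rule also carried sites. Zfpm1, which encodes FOG1, the partner of GATA1, had 159 sites on the plus strand of chromosome 8 with a median level of 0.647 (quartiles 0.466 and 0.815), and 40 of them (25.2%) were called in both KO replicates. Zfpm2 had 7 sites with a median of 0.5. The mRNA decay factor genes Zfp36l1 and Zfp36l2, on the minus strand, had 3 sites and 1 site, and the highest level in Zfp36l1 was 0.929, above the 0.35 that no minus-strand Zfp site exceeded. Zfp267 appears under an older label with 2 sites at levels of 0.5 and 0.6.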
